A study of Mus musculus with 18 samples.

Results

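Ligands and antagonists of the activin, Nodal and TGF-beta branch were followed through the differentiation of mouse embryonic stem (ES) cells in which Dlx2 can be induced. The 10 genes were the activin subunits Inhba and Inhbb, the activin antagonist Fst, the ligands Nodal and Gdf3, the Nodal antagonists Lefty1 and Lefty2, and Tgfb1, Tgfb2 and Tgfb3. They were chosen by symbol, and all 10 were found in both count tables, among 26157 symbols at day 2 and 54114 symbols in the table of the later stages. All lines derive from mouse ES cells with a tdTomato reporter at Msx1, a homeobox gene of craniofacial mesenchyme, grown with serum and LIF. The data are 14 RNA-seq libraries, 2 for each of 7 groups. At day 2 these were hanging-drop embryoid bodies (EBs) of a doxycycline-inducible Dlx2 line and EBs of an inducible GFP line. Both day-2 groups were read as the induced samples, labelled with 1 µg/ml doxycycline. At days 8 and 16 the groups were Msx1+ and Msx1- cells sorted from EBs of the inducible Dlx2 genotype. Both fractions were kept with 1 µg/ml doxycycline. The last group was labelled as wild-type, untreated ES cells. Each inducible line is taken here as a single line, since the labels name no further clones, and the sorted stages had no GFP group.

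Nodal, Gdf3 and the activins signal through type I and type II activin receptors to Smad2 and Smad3, and Nodal and Gdf3 also need the co-receptor Tdgf1 (Cripto). Lefty proteins bind Nodal and its co-receptor and are themselves induced by Nodal, which makes them feedback inhibitors, while follistatin (Fst) binds activin and keeps it from its receptors. The TGF-beta isoforms use their own receptors, Tgfbr1 and Tgfbr2, to reach the same Smads, and are released from a latent complex in the matrix. In the early embryo Nodal and the Lefty genes pattern the germ layers and the left-right axis, and in craniofacial mesenchyme activin A and the TGF-beta isoforms act in tooth and palate formation.

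Each library held 26211608 to 41552818 counts at day 2 and 53797597 to 107770730 counts at the later stages, and each was nearer to its own replicate than to a library of another group. Dlx2 stood at 4344 and 4720 CPM (counts relative to library size, with TMM factors) in Dlx2 EBs and had 2 counts in each GFP EB library. It stood at 1137 and 1270 CPM in Msx1+ and 269 and 272 CPM in Msx1- cells of day 8, and at 288 and 341 CPM in Msx1+ and 131 and 146 CPM in Msx1- cells of day 16. The libraries labelled as wild-type, untreated ES cells held Dlx2 at 219 and 222 CPM, near the level in Msx1- cells, and for this reason are called the libraries labelled ES throughout. Msx1 stood at 40.9 to 81.7 CPM in the Msx1+ libraries and 0.753 to 1.90 CPM in the Msx1- libraries. Differences were tested by edgeR's quasi-likelihood test, adjusted by Benjamini-Hochberg over every gene of a fit, and called at an adjusted p below 0.05. Changes are log2 fold changes ± SE. Nothing in the labels says that replicates were separate cultures, so these p-values cover the spread between libraries, which may be technical. An exact test of 2 values against 2 cannot go below p = 0.333, and every call therefore rests on a spread estimated across genes.

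Nodal, Gdf3, Lefty1, Lefty2, Inhbb and Tgfb1 were lower in Dlx2 EBs than in GFP EBs at day 2, and Tgfb2 was the member with the widest change, in the opposite direction. Of the 9 members tested, 3 were called higher and 6 lower. Of all 18650 genes tested 67.2% were called, 34.1% higher and 33% lower. In the sorted cells of day 8, Inhba, Fst and the 3 TGF-beta genes were higher in Msx1+ than in Msx1- cells, while Nodal, Gdf3, Lefty2 and Inhbb were lower. That made 5 higher and 4 lower of 10, against 54.7% of 22294 genes called, 30.4% higher and 24.3% lower. At day 16, 4 members were higher and 6 lower in Msx1+ cells, with 62.1% of genes called, 31.1% higher and 31% lower. The share of members called lay above the background in each of these comparisons, but where most genes differ a call by itself says little, and the size of a change is the more informative value. The median log2 change of the members tested was -1.52 at day 2, 1.00 at day 8 and -1.32 at day 16, against 0.024, 0.062 and -0.016 over all genes.

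**Figure D1:**
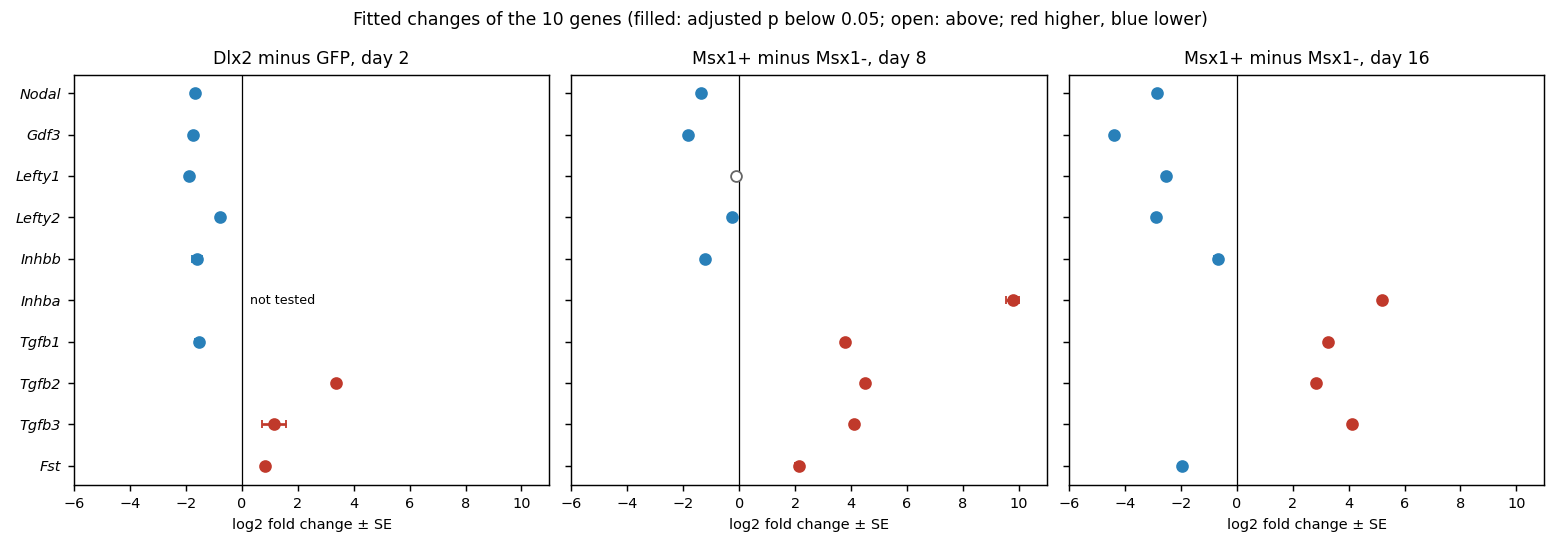
Fitted log2 fold changes of the 10 genes (horizontal axis, points with SE bars) for Dlx2 minus GFP EBs at day 2 and for Msx1+ minus Msx1- cells at days 8 and 16; filled points passed an adjusted p of 0.05. Nodal and Gdf3 lie left of 0 in each panel, Tgfb2 and Tgfb3 lie right of 0 in each, and Fst is at 2.12 at day 8 and -1.96 at day 16.

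The order of the members, read as CPM per kilobase of exon so that genes can be compared, was led by the Lefty genes in every group but Msx1+ cells of day 16. Lefty2 averaged 90.0 CPM per kb in Dlx2 EBs and 156 CPM per kb in GFP EBs. It averaged 120 CPM per kb in the libraries labelled ES. In Msx1+ cells of day 16, Inhba came first with 34.3 ± 0.85 CPM per kb (SD, n = 2), followed by Tgfb2 with 25.3 ± 0.83 and Lefty2 with 18.5 ± 0.087. Those neighbours did not overlap between libraries. Inhba was last of the 10 in Dlx2 EBs, in GFP EBs, in the libraries labelled ES and in Msx1- cells of day 8. In Msx1- cells of day 16 it was next to last, at 0.932 CPM per kb, and overlapped with Tgfb3 at 0.846 CPM per kb.

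**Figure D2:**
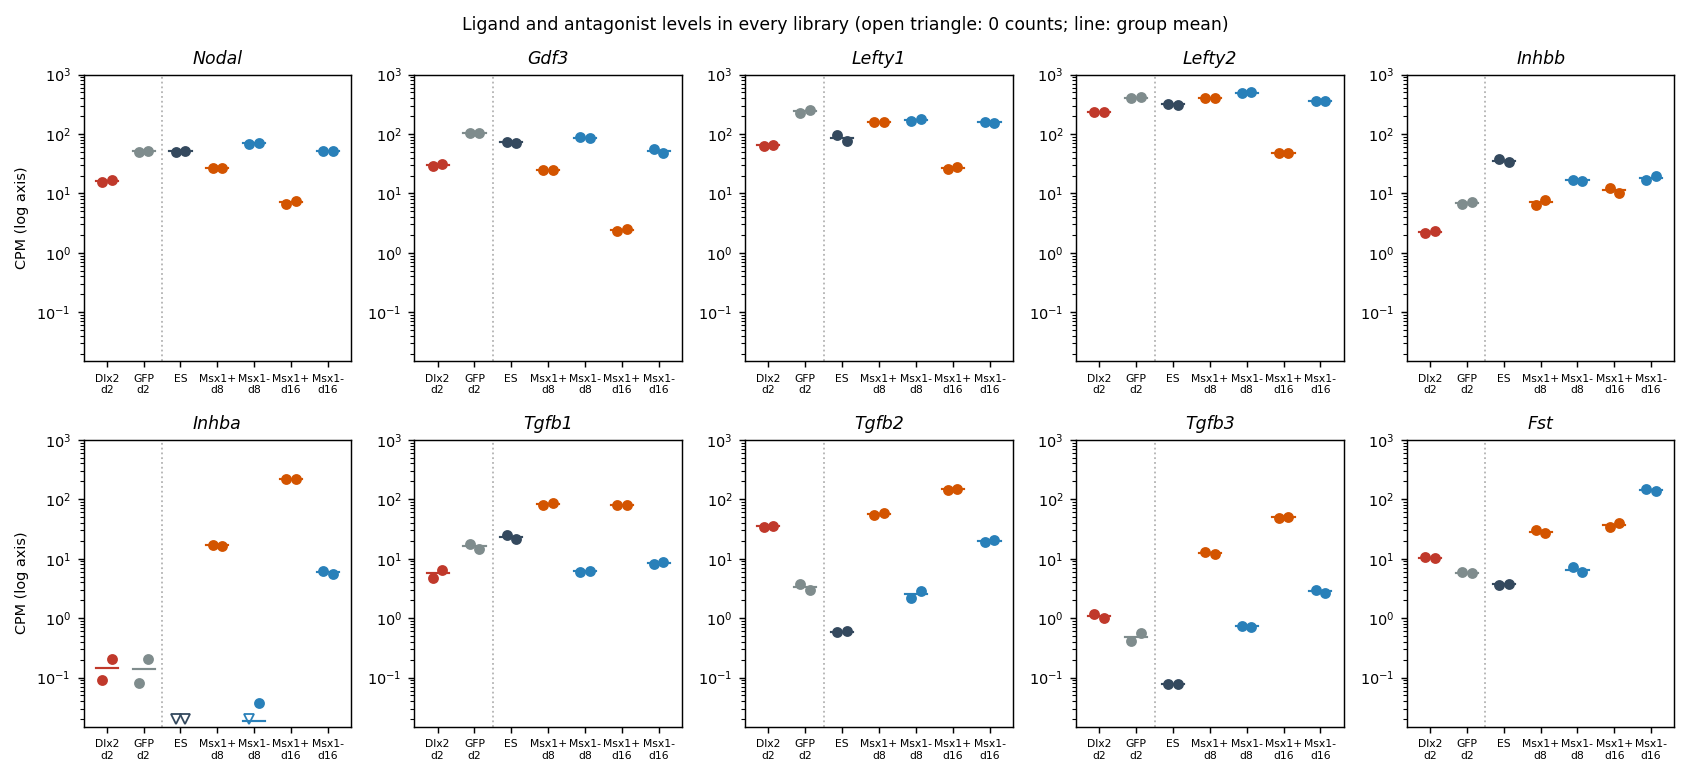
Level of each gene in every library, in CPM on a logarithmic axis, with a point per library, a line at the group mean and an open triangle for 0 counts; the dotted line parts the day-2 table from the table of the later stages, which were scaled separately. Inhba is at 223 and 216 CPM in Msx1+ cells of day 16 and at 0 counts in both libraries labelled ES. Some groups overlap, among them Inhba in Dlx2 and GFP EBs and Tgfb1 in Msx1+ cells of days 8 and 16. Nodal overlaps between Msx1- cells of day 16 and the libraries labelled ES.

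Nodal (GRCm38, chromosome 10, 61417972 to 61425338, forward strand) stood at 15.4 and 16.8 CPM in Dlx2 EBs, against 50.5 and 52.5 CPM in GFP EBs. Both Dlx2 libraries lay below both GFP libraries, and Nodal fell by 1.68 ± 0.081 on the log2 scale (adjusted p = 2.83e-14). In the sorted cells it stood at 26.9 CPM in both Msx1+ libraries of day 8, against 68.7 and 71.3 CPM in Msx1- cells. At day 16 it stood at 6.76 and 7.56 CPM in Msx1+ cells, against 52.1 and 51.7 CPM in Msx1- cells. The fractions were thus apart at both days, with differences of -1.38 ± 0.071 (adjusted p = 4.37e-10) at day 8 and -2.86 ± 0.079 (adjusted p = 3.41e-13) at day 16. The libraries labelled ES held Nodal at 49.6 and 52.5 CPM. Msx1- cells of day 16 were not called against them (0.02 ± 0.069, adjusted p = 0.807), whereas Msx1- cells of day 8 were higher by 0.45 and Msx1+ cells of day 16 lower, with a change of -2.83. Across the groups of the later table, Nodal therefore ran from Msx1- cells of day 8 at the top to Msx1+ cells of day 16 at the bottom, and in this order its neighbours overlapped between Msx1- cells of day 16 and the libraries labelled ES.

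The RefSeq table (GRCm38.p6) held the promoter of 5 of the 10 members, and the 250 bases before the start are shown for Nodal, Inhba and Tgfb2, which carry the falling and the rising side of the data. They were searched on both strands for AATNNACA, the motif bound by the Nodal effector FoxH1, and for GTCT, the core bound by Smad proteins, which do not overlap each other here. Capitals mark matches to GTCT or its reverse complement, and no window held AATNNACA. The Nodal window (chr10:61417722-61417971, forward strand) held neither motif.
Nodal: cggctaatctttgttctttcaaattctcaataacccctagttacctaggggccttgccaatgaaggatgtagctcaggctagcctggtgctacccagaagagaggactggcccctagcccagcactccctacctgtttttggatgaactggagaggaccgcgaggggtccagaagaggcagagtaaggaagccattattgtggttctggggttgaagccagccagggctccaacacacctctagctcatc
Of 32851 RefSeq promoter windows of the same length, 82.9% held GTCT at least once and 10.9% held AATNNACA. A missing match says only that these letters are not in this window, and known Nodal response elements of this gene need not lie in it.

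Gdf3 (chromosome 6, 122605403 to 122610087, reverse strand), a ligand related to Nodal that is known from ES cells and the early embryo, followed the same directions. It stood at 29.4 and 31.6 CPM in Dlx2 EBs, against 102 and 104 CPM in GFP EBs, and fell by 1.76 ± 0.064 (adjusted p = 1.64e-16). In Msx1+ cells of day 8 it stood at 24.8 and 24.7 CPM, against 87.7 and 86.4 CPM in Msx1- cells. In Msx1+ cells of day 16 it stood at 2.37 and 2.53 CPM, against 54.9 and 48.0 CPM in Msx1- cells. No library of one fraction reached the other, and the differences were -1.82 ± 0.076 at day 8 (adjusted p = 4.59e-11) and -4.40 ± 0.096 at day 16 (adjusted p = 3.32e-14). The day-16 difference was the widest fall of any member in these 3 comparisons. Against the libraries labelled ES, at 74.1 and 70.5 CPM, Msx1- cells of day 8 were higher by 0.27 (adjusted p = 0.00643). That call was lost without ES replicate 2 (0.24, adjusted p = 0.0682) and without Msx1- day 8 replicate 1 (0.26, adjusted p = 0.0512). Together, Nodal and Gdf3 summed to 20.3 CPM per kb in Dlx2 EBs and 67.2 in GFP EBs. They summed to 23.1 in Msx1+ and 69.4 in Msx1- cells of day 8, and to 4.43 in Msx1+ and 46.0 in Msx1- cells of day 16.

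Markers of pluripotent cells moved with Nodal and Gdf3 between the lines at day 2 and between the fractions at days 8 and 16. The 8 markers fixed for these cells (among them Pou5f1, Nanog, Sox2 and Esrrb) summed to 1029 to 1073 CPM in Dlx2 EBs and 4929 to 5033 CPM in GFP EBs. At day 8 they summed to 1204 to 1208 CPM in Msx1+ and 4589 to 4696 CPM in Msx1- cells, and at day 16 to 211 to 224 CPM in Msx1+ and 3234 to 3412 CPM in Msx1- cells. All 8 were called lower in each of the 3 comparisons, and none was at 0 in any group. Against the libraries labelled ES, 6 of the 8 were lower and 1 higher in Msx1- cells of day 8. There Nodal was higher by 0.45, and Gdf3 by 0.27 with the less stable call given above. The part of these markers in the change of the ligands was not tested. In bulk samples fewer cells of a type and less RNA per cell cannot be told apart.

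Lefty1 (chromosome 1, 180935022 to 180938400, forward strand) and Lefty2 (chromosome 1, 180893108 to 180899103, forward strand) are neighbours on the same chromosome, and both fell at day 2. Lefty1 stood at 63.9 and 65.2 CPM in Dlx2 EBs, against 229 and 251 CPM in GFP EBs, and fell by 1.89 ± 0.054 (adjusted p = 2.27e-18). Lefty2 stood at 239 and 231 CPM in Dlx2 EBs, against 400 and 413 CPM in GFP EBs, and fell by 0.79 ± 0.048 (adjusted p = 1.53e-12). Neither gene overlapped between the lines. Per kilobase, the ratio of Lefty1 to Lefty2 was 0.398 and 0.419 in Dlx2 EBs, against 0.852 and 0.901 in GFP EBs. The transcripts of the pair share 97 stretches of 100 bases, which make up 5.85% of those in Lefty1 and 3.86% of those in Lefty2, so reads from there cannot be assigned with certainty to either gene.

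At day 8 the Lefty genes differed little between the fractions. Lefty1 stood at 161 and 159 CPM in Msx1+ cells, against 167 and 180 CPM in Msx1- cells. The groups did not overlap, but the difference of -0.12 ± 0.058 was not called (adjusted p = 0.0999). It was called with RLE scaling (-0.17, adjusted p = 0.0238), with a filter of 1 CPM in 4 libraries (-0.14, adjusted p = 0.0359), with DESeq2 (-0.17, adjusted p = 0.0288) and without Msx1- day 8 replicate 1 (-0.21, adjusted p = 0.0427), and it turned to 0.036 with library sizes alone. Lefty2 stood at 407 and 408 CPM in Msx1+ cells, against 480 and 502 CPM in Msx1- cells, a difference of -0.27 ± 0.053 (adjusted p = 0.000439) that was lost with library sizes alone (-0.12, adjusted p = 0.0655). Scaling by library size moved the median of all genes to 0.217 at day 8, so changes of this size depend on the scaling.

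Both Lefty genes were far lower in Msx1+ cells at day 16. Lefty1 stood at 26.2 and 27.9 CPM in Msx1+ cells, against 160 and 155 CPM in Msx1- cells, a difference of -2.54 ± 0.063 (adjusted p = 1.17e-13). Lefty2 stood at 48.1 and 48.4 CPM in Msx1+ cells, against 357 and 354 CPM in Msx1- cells, a difference of -2.88 ± 0.057 (adjusted p = 1.43e-14). Within Msx1+ cells, day 16 was lower than day 8 by a log2 change of -2.57 for Lefty1 and -3.08 for Lefty2. Within Msx1- cells the change was -0.14 for Lefty1 (adjusted p = 0.0667, not called) and -0.47 for Lefty2. The Msx1+ minus Msx1- difference itself changed between the days by -2.42 ± 0.085 for Lefty1 and -2.61 ± 0.076 for Lefty2.

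Set against its ligand, the summed Lefty level per kilobase was 17.4 and 15.7 times that of Nodal in Dlx2 EBs, against 11.8 and 12 times in GFP EBs. It was 19.3 and 19.2 times in Msx1+ cells of day 8, against 8.51 and 8.67 times in Msx1- cells of day 8. At day 16 it was 10.3 and 9.53 times in Msx1+ cells, against 9.14 and 9.07 times in Msx1- cells. The ratio was thus higher in Dlx2 EBs than in GFP EBs and higher in Msx1+ than in Msx1- cells of day 8 in both libraries of each, and the fractions of day 16 were the closest pair. With 2 libraries a group these ratios are given without a test. In the libraries labelled ES the ratio was 7.49 and 6.40.

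**Figure D3:**
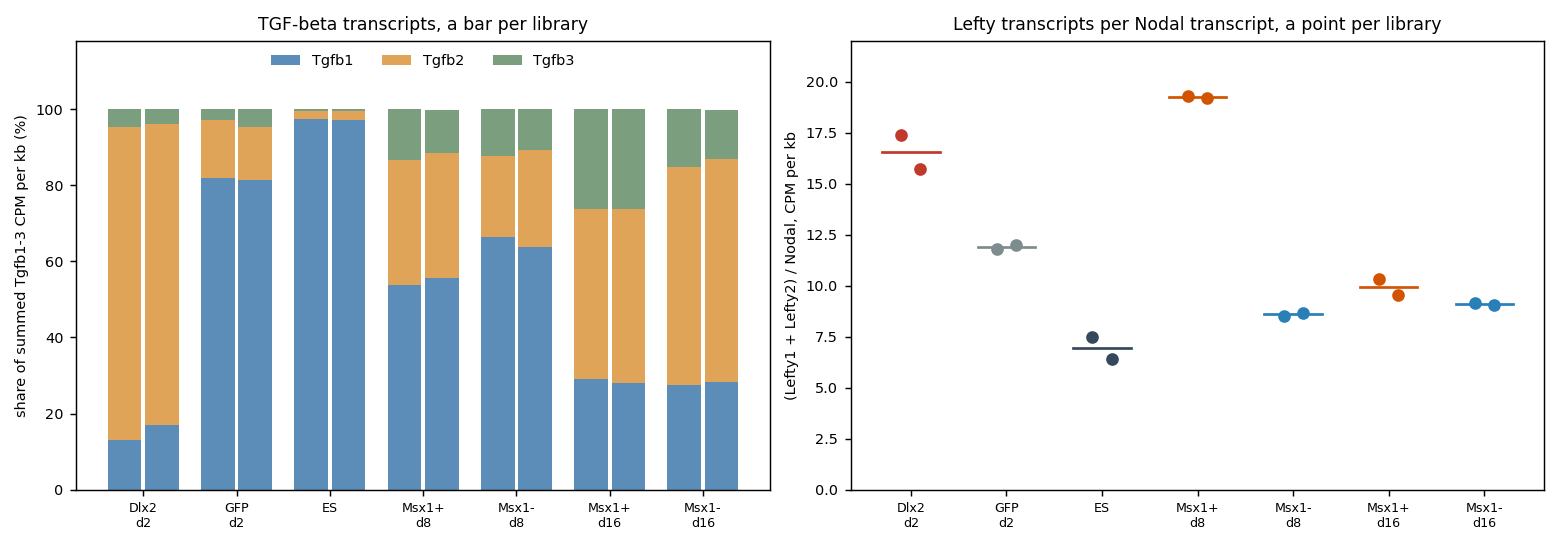
Left, share of each TGF-beta gene in the summed Tgfb1, Tgfb2 and Tgfb3 level per kilobase, as a stacked bar per library (percent); right, summed Lefty1 and Lefty2 level divided by the Nodal level, both in CPM per kb, with a point per library and a line at the mean. Tgfb2 takes 80.8% of the sum in Dlx2 EBs and 14.7% in GFP EBs, and the Lefty to Nodal ratio is highest in Msx1+ cells of day 8, at 19.2.

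Inhbb (chromosome 1, 119415465 to 119422248, reverse strand), the subunit of activin B, was on the falling side with Nodal. It stood at 2.15 and 2.37 CPM in Dlx2 EBs, against 6.58 and 7.19 CPM in GFP EBs, and fell by 1.61 ± 0.18 (adjusted p = 6.12e-08). At day 8 it stood at 6.42 and 7.76 CPM in Msx1+ cells, against 16.8 and 16.2 CPM in Msx1- cells. At day 16 it stood at 12.5 and 10 CPM in Msx1+ cells, against 16.6 and 19.4 CPM in Msx1- cells. The fractions did not overlap at either day, and the differences were -1.21 ± 0.13 (adjusted p = 1.85e-06) at day 8 and -0.68 ± 0.13 (adjusted p = 0.00039) at day 16. Its level was highest in the libraries labelled ES, at 37.5 and 33.5 CPM, and each sorted group was called lower than these.

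Inhba (chromosome 13, 16011851 to 16031621, forward strand), the subunit of activin A, had almost no reads before the sorted stages. It had 4 and 7 counts in the Dlx2 EB libraries, against 2 and 5 counts in the GFP EB libraries, too few to be tested, and the ratio, scaled to depth, was 0.987 with a counting interval of 0.349 to 3. At day 8 it stood at 17.0 and 16.4 CPM in Msx1+ cells, against 2 counts over both Msx1- libraries. Msx1+ cells were thus 963-fold higher, with a counting interval of 266 to 7960. At day 16 it stood at 223 and 216 CPM in Msx1+ cells, against 6.30 and 5.61 CPM in Msx1- cells, a difference of 5.20 ± 0.093 (adjusted p = 5.93e-15). Within Msx1+ cells, day 16 was higher than day 8 by 3.72 ± 0.083 (adjusted p = 2.94e-13), and within Msx1- cells it was 345-fold higher (interval 95.1 to 2850). Both libraries labelled ES had 0 counts. Set against a floor of 3 counts over that group, Inhba was at least 570-fold higher in Msx1+ cells of day 8, 7520-fold in Msx1+ cells of day 16 and 204-fold in Msx1- cells of day 16. The intervals and floors cover counting error only.

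The Inhba window (chr13:16011601-16011850, forward strand) held 1 match to GTCT. It is shown because Inhba had the highest level per kilobase of the members in Msx1+ cells of day 16 and no reads in the libraries labelled ES.
Inhba: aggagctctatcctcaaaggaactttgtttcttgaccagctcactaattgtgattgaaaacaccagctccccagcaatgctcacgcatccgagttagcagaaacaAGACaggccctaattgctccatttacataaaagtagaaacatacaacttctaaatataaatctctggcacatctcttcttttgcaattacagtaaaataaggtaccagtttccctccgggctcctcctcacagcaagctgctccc
The share of all windows with this motif, 82.9%, makes a single match the common case.

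Per kilobase, Inhba was 1.76 and 1.41 times the level of Inhbb in Msx1+ cells of day 8 and 11.9 and 14.3 times its level in Msx1+ cells of day 16. In Msx1- cells of day 16 the ratio was 0.253 and 0.193. Inhba was therefore the more abundant subunit transcript in Msx1+ cells of both days and the less abundant in all the other groups. RNA of a subunit does not give the amount of the activin dimer.

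Fst (chromosome 13, 114452290 to 114458951, reverse strand) was the member whose direction between the fractions turned with time. At day 2 it stood at 10.6 and 10.2 CPM in Dlx2 EBs, against 5.89 and 5.66 CPM in GFP EBs, and rose by 0.84 ± 0.13 (adjusted p = 8.98e-06). In the fractions of day 8 it stood at 30.3 and 26.8 CPM in Msx1+ cells, against 7.18 and 5.88 CPM in Msx1- cells, a difference of 2.12 ± 0.11 (adjusted p = 1.18e-09). In those of day 16 it stood at 34.2 and 39.8 CPM in Msx1+ cells, against 151 and 136 CPM in Msx1- cells, a difference of -1.96 ± 0.098 (adjusted p = 4.78e-10). Msx1+ cells were thus the higher fraction at day 8 and the lower at day 16, with no overlap at either day. The change of the difference was -4.08 ± 0.15 (adjusted p = 3.24e-10).

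The turn lay mostly in Msx1- cells. There, day 16 was higher than day 8 by 4.46 ± 0.11 for Fst (adjusted p = 3.18e-12), while in Msx1+ cells it was higher by 0.37 ± 0.097 (adjusted p = 0.00587). The call in Msx1+ cells was lost with library sizes alone (0.26, adjusted p = 0.0519) and without Msx1+ day 16 replicate 2 (0.26, adjusted p = 0.0841). Markers of primitive and visceral endoderm were also higher in Msx1- cells of day 16: their 10 genes summed to 624 to 655 CPM in Msx1- cells of day 16, against 108.3 to 113.1 CPM in Msx1- cells of day 8, and all 10 were called higher. In Msx1+ cells of day 16 the sum was 133 to 134 CPM, and 8 of the 10 were called lower than in Msx1- cells. At day 8, where Fst was higher in Msx1+ cells, the sum was 50.4 to 57.0 CPM in Msx1+ and 108.3 to 113.1 CPM in Msx1- cells. Of the 10 markers, 6 were called lower in Msx1+ cells and 2 higher. The difference in the sum lay largely in Cubn, at 10.5 and 13.7 CPM in Msx1+ and 70.8 and 73.5 CPM in Msx1- cells. Gata4 and Afp were higher in both Msx1+ libraries of day 8 than in either Msx1- library. All 7 markers of mesenchyme were higher in Msx1- cells of day 16 than of day 8 as well (median 4.17). No endoderm marker was at 0 in these groups, and the part of such cells in the Fst level was not tested. Per kilobase, Fst was 2.38 times the level of Inhba in Msx1+ cells of day 8 and 0.235 times in Msx1+ cells of day 16, against 33.6 times in Msx1- cells of day 16.

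Tgfb1 (chromosome 7, 25687002 to 25705077, forward strand) and Tgfb2 (chromosome 1, 186622792 to 186705989, reverse strand) moved in opposite directions at day 2. Tgfb1 stood at 4.76 and 6.57 CPM in Dlx2 EBs, against 17.5 and 14.8 CPM in GFP EBs, and fell by 1.52 ± 0.14 (adjusted p = 3.44e-09). Tgfb2 stood at 34.7 and 35.3 CPM in Dlx2 EBs, against 3.73 and 2.95 CPM in GFP EBs, and rose by 3.39 ± 0.12 (adjusted p = 5.88e-17). Libraries of the lines did not overlap for either gene. Tgfb3 (chromosome 12, 86056745 to 86079041, reverse strand) stood at 1.16 and 1.01 CPM in Dlx2 EBs, against 0.406 and 0.566 CPM in GFP EBs, a change of 1.16 ± 0.42 (adjusted p = 0.0187). This call was lost with DESeq2 (1.16, adjusted p = 0.145). It was also lost when Dlx2 replicate 1 (1.05, adjusted p = 0.175), Dlx2 replicate 2 (1.25, adjusted p = 0.0809) or GFP replicate 1 (0.92, adjusted p = 0.104) was left out.

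The make-up of the TGF-beta transcripts was also apart between the lines at day 2, given here without a test. Tgfb1 took 15.0% of the summed level per kilobase in Dlx2 EBs and 81.6% in GFP EBs. Tgfb2 took 80.8% in Dlx2 EBs and 14.7% in GFP EBs, and Tgfb3 took 4.29% in Dlx2 EBs and 3.74% in GFP EBs. The sum itself was 7.49 CPM per kb in Dlx2 EBs and 3.92 in GFP EBs. In the libraries labelled ES, Tgfb1 took 97.3% of a sum of 4.72 CPM per kb.

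The Tgfb2 window (chr1:186705990-186706239, reverse strand) held 3 matches to GTCT, against a mean of 1.87 over all windows. It is shown because Tgfb2 rose most of the members at day 2.
Tgfb2: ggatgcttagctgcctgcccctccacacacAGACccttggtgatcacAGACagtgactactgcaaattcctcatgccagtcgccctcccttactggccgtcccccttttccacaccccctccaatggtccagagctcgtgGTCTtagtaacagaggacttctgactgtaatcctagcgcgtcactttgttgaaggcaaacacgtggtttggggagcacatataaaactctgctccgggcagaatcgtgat
Inhbb and Tgfb1, whose windows were searched as well, held 2 matches and 1 match to GTCT.

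All 3 TGF-beta genes were higher in Msx1+ than in Msx1- cells at both days. Tgfb1 stood at 79.0 and 87.1 CPM in Msx1+ cells of day 8, against 5.96 and 6.25 CPM in Msx1- cells, a difference of 3.77 ± 0.084 (adjusted p = 7.25e-14). Tgfb2 stood at 55.3 and 59.0 CPM in Msx1+ cells of day 8, against 2.17 and 2.86 CPM in Msx1- cells, a difference of 4.51 ± 0.10 (adjusted p = 1.11e-13). Tgfb3 stood at 13.1 and 12.1 CPM in Msx1+ cells of day 8, against 0.745 and 0.702 CPM in Msx1- cells, a difference of 4.11 ± 0.13 (adjusted p = 2.56e-12). Every Msx1+ library of day 8 lay far above every Msx1- library. At day 16 Tgfb1 stood at 80.9 and 80.1 CPM in Msx1+ cells, against 8.10 and 8.82 CPM in Msx1- cells. Tgfb2 stood at 143 and 150 CPM in Msx1+ cells of day 16, against 19.5 and 21.0 CPM in Msx1- cells, and Tgfb3 at 48.8 and 50.1 CPM in Msx1+ cells, against 3.03 and 2.70 CPM in Msx1- cells. The groups were apart again, with called differences of 3.25 ± 0.081 for Tgfb1, 2.85 ± 0.085 for Tgfb2 and 4.11 ± 0.11 for Tgfb3.

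With time the 3 genes parted. In Msx1+ cells, day 16 was higher than day 8 by 1.35 ± 0.079 for Tgfb2 and 1.97 ± 0.093 for Tgfb3, while Tgfb1 was not called (-0.05 ± 0.069, adjusted p = 0.626) and its libraries overlapped between the days. In Msx1- cells, day 16 was higher by 0.47 ± 0.088 for Tgfb1, 3.01 ± 0.11 for Tgfb2 and 1.98 ± 0.15 for Tgfb3. The Msx1+ minus Msx1- difference changed between the days by -1.66 ± 0.13 for Tgfb2 and -0.52 ± 0.11 for Tgfb1. For Tgfb3 the change was -0.01 ± 0.13 and was not called (adjusted p = 0.995). The summed level per kilobase was 30.1 CPM per kb in Msx1+ and 1.86 in Msx1- cells of day 8, and 55.8 in Msx1+ and 6.02 in Msx1- cells of day 16. Tgfb1 took 54.8% of the sum in Msx1+ and 65.2% in Msx1- cells of day 8, and 28.6% in Msx1+ and 27.9% in Msx1- cells of day 16. The shift of the shares toward Tgfb2 and Tgfb3 was therefore seen in both fractions.

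Markers of mesenchyme were higher in Dlx2 EBs and in Msx1+ cells of both days. At day 2 this did not go with all of these ligands, since Tgfb1 fell by 1.52 in Dlx2 EBs and Inhba had too few counts to be tested. The 7 marker genes (among them Pdgfra, Prrx1, Twist1, Col1a1 and Cdh11) summed to 259 to 270 CPM in Dlx2 EBs and 10.95 to 11 CPM in GFP EBs. Most of the sum in Dlx2 EBs was Pdgfra, at 241 and 227 CPM, against 1.02 and 1.09 CPM in GFP EBs. Prrx1, for example, stood at only 8.23 and 7.38 CPM in Dlx2 EBs. At day 8 the 7 markers summed to 1059 to 1198 CPM in Msx1+ and 33.6 to 34.8 CPM in Msx1- cells. At day 16 the sums were 12310 to 13230 CPM in Msx1+ and 592 to 658 CPM in Msx1- cells. All 7 were called higher in Msx1+ cells at both days, and the 6 that could be tested at day 2 were higher in Dlx2 EBs. In the libraries labelled ES, 2 of the 7 were at 0. Their part in the ligand levels was not tested, nor was that of Dlx2, which was also higher in Msx1+ than in Msx1- cells.

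Over all members, 1 was called higher and 8 lower for the change of the Msx1+ minus Msx1- difference from day 8 to day 16, where 28.6% of all genes were called, 10.3% higher and 18.3% lower. Nodal changed by -1.48 ± 0.10 and Gdf3 by -2.58 ± 0.12. Inhba changed by -4.57, a value that rests on the 2 counts of Msx1- cells at day 8. It was -3.53 without Msx1- day 8 replicate 1 and -8.01 without Msx1- day 8 replicate 2. The only member called higher was Inhbb (0.54 ± 0.19, adjusted p = 0.0438), which was lost with library sizes alone (0.35, adjusted p = 0.168). It was also lost without Msx1+ day 8 replicate 1, Msx1- day 8 replicate 1 or 2, Msx1+ day 16 replicate 1 or Msx1- day 16 replicate 1 (0.37 to 0.58, adjusted p = 0.069 to 0.197). Between the days, 5 members were higher and 4 lower in Msx1+ cells of day 16, with 45.9% of all genes called, 21.1% higher and 24.8% lower. In Msx1- cells of day 16, 5 were higher and 3 lower, with 37.6% called, 19.7% higher and 17.8% lower. In Msx1+ cells the lower members were Nodal (-1.91), Lefty1, Lefty2 and Gdf3 (-3.34). In Msx1- cells they were Nodal (-0.43), Lefty2 and Gdf3 (-0.76).

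Against the libraries labelled ES, 7 members were higher and 3 lower in Msx1+ cells of day 8, with 61.5% of 22504 genes called, 34.6% higher and 26.9% lower. In Msx1- cells of day 8, 7 were higher and 2 lower, with 33.6% called, 19% higher and 14.5% lower. At day 16, 5 were higher and 5 lower in Msx1+ cells, with 71% called, 37.3% higher and 33.7% lower. In Msx1- cells of day 16, 6 were higher and 3 lower, with 53% called, 28.5% higher and 24.5% lower. These 4 comparisons share the same ES libraries and are not independent. Lefty1 stood at 96.4 and 75.7 CPM in the libraries labelled ES, and was higher by 0.90 in Msx1+ and 1.01 in Msx1- cells of day 8. Lefty2, at 320 and 307 CPM in those libraries, was higher by 0.18 (adjusted p = 0.00644) in Msx1- cells of day 16, which was lost without ES replicate 2 (0.15, adjusted p = 0.0843). Tgfb1 was higher by 1.84 in Msx1+ cells of day 8 and 1.80 in those of day 16, but lower in Msx1- cells, with changes of -1.93 at day 8 and -1.45 at day 16. For Tgfb2 and Tgfb3 all 4 sorted groups were higher, by 2.07 to 7.94 and by 3.19 to 9.28.

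Other genes of the pathway were counted in lists drawn up by role. Among 11 receptors and co-receptors, 4 of 10 tested were higher and 5 lower in Dlx2 EBs, with a median of -0.13 against 0.024 for all genes. The co-receptor Tdgf1 averaged 126 ± 3.0 CPM in Dlx2 EBs and 779 ± 9.8 CPM in GFP EBs (SD, n = 2), a change of -2.63. The type I receptor Tgfbr1 averaged 229 ± 11 CPM in Dlx2 EBs and 46.9 ± 1.8 CPM in GFP EBs, a change of 2.29, and Acvr2a rose by 1.26 and Acvr1c by 3.84. In Msx1+ cells of day 8, 6 of 11 were higher and 3 lower, with a median of 0.50 against 0.062. There the type II receptor Tgfbr2 averaged 53.6 ± 5.5 CPM in Msx1+ and 4.50 ± 0.30 CPM in Msx1- cells, Acvr1c and Acvr1 were higher, and Tdgf1 was lower by a change of -2.17. At day 16, 7 of 11 were higher and 4 lower, with a median of 1.48 against -0.016. Tdgf1 averaged 26.7 ± 0.24 CPM in Msx1+ and 613 ± 6.1 CPM in Msx1- cells of day 16, a change of -4.52, while Tgfbr2 was higher by 1.99. Tdgf1 was thus lower in each of the 3 comparisons. Cfc1, the other co-receptor of its family, averaged 1.37 ± 0.019 CPM in Msx1+ and 0.188 ± 0.035 CPM in Msx1- cells of day 16, higher by 2.85 (adjusted p = 0.00218). It was not called at day 8 (adjusted p = 0.222) and had too few counts to be tested at day 2.

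Of the Smads and their partners, 4 of 12 were higher and 5 lower at day 2, where 67.2% of all genes were called, with a median of -0.11 against 0.024. Smad6, an inhibitory Smad of the BMP branch, rose by 2.69, while Smad7, the inhibitory Smad induced by TGF-beta, fell by 1.08 and the corepressor Skil by 1.00. At day 8, 4 of 12 were higher and 4 lower in Msx1+ cells (median 0.09 against 0.062), led by Smad6 (2.14) and the effector Smad3 (1.41), with Tgif1 and Tgif2 lower. At day 16, 7 of 12 were higher and 3 lower (median 0.24 against -0.016), with Smad6 at 2.63, Smad3 at 1.60, Tgif1 at -1.19 and Foxh1, the DNA-binding partner of Smad2, at -1.27. Smad2 itself was not called in either sorted comparison.

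Genes of processing, latency and activation were mostly higher. At day 2, 8 of 14 tested were higher and 2 lower (median 0.38 against 0.024), with fibrillin Fbn1 at 88.7 CPM in Dlx2 EBs and 6.34 CPM in GFP EBs. The proprotein convertase Pcsk5 rose by 3.79 and the latent TGF-beta binding protein gene Ltbp3 by 2.79, while Ltbp4 fell by 1.94. The other lower gene was Thbs1, at 9.1 and 8.8 CPM in Dlx2 EBs, against 31.7 and 27.8 CPM in GFP EBs. At day 8, 11 of 15 were higher and 2 lower in Msx1+ cells (median 2.01 against 0.062), with Fbn1 (4.57), Ltbp3 (4.33), Pcsk5 (4.2) and the integrin gene Itgb8 (4.07) leading. At day 16, 11 of 15 were higher and 4 lower (median 1.85 against -0.016). Thbs1, whose product thrombospondin can activate latent TGF-beta, averaged 1362 ± 23 CPM in Msx1+ and 97.6 ± 9.6 CPM in Msx1- cells of day 16, and Fbn1, Ltbp3 and Ltbp2 were higher by 4.35, 4.07 and 3.97.

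Among the other ligands and antagonists, 4 of 10 tested were higher and 3 lower at day 2 (median 0.17 against 0.024). The pseudoreceptor Bambi rose by 1.71 and the Nodal antagonist gene Dand5 by 1.46, and the matrix proteoglycan gene Dcn fell by 2.13. At day 8, 6 of 13 were higher and 3 lower in Msx1+ cells (median 1.00 against 0.062). Gdf11, a ligand of activin receptors, averaged 25.5 CPM in Msx1+ and 3.52 CPM in Msx1- cells of day 8, and Bambi and Dcn were higher by 2.34 and 3.49. At day 16, 9 of 13 were higher and 3 lower (median 1.71 against -0.016), with Dcn higher by 4.62. Inhbc and Inhbe, further activin subunit genes, were lower in Msx1+ cells of day 16, at 0.016 and 0.032 CPM against 0.728 and 0.597 CPM in Msx1- cells.

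Genes known as targets of Nodal and activin were mixed, and those of TGF-beta differed in direction between day 2 and the sorted stages. Of 11 Nodal and activin targets, 4 were higher and 5 lower in Dlx2 EBs (median 0.05 against 0.024). Those that rose were low: Gsc averaged 2.72 CPM in Dlx2 EBs and 0.182 CPM in GFP EBs, and Lhx1 averaged 4.32 CPM in Dlx2 EBs and 0.405 CPM in GFP EBs. Foxa2 and Mixl1 rose as well. In Msx1+ cells, 5 were higher and 2 lower at day 8 (median 0.65), among the higher ones Lhx1 (2.14) and T (2.01), and 6 were higher and 3 lower at day 16 (median 0.20). The endoderm factors Sox17 and Foxa2, on both this list and the endoderm list, were lower in Msx1+ cells of day 16, by changes of -3.12 and -1.54.

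Of the TGF-beta targets, 2 of 12 tested were higher and 8 lower in Dlx2 EBs at day 2, with a median of -0.49 against 0.024. Tgfbi, a matrix gene named for its induction by TGF-beta, and Col1a1 rose by 1.42 and 1.21, while Smad7 fell by 1.08. In Msx1+ cells of day 8, 10 of 14 were higher and 2 lower (median 1.53 against 0.062). At day 16, 13 of 14 were higher and Smad7 alone was lower (median 1.80 against -0.016). Postn was higher by 7.72 at day 8 and 6.18 at day 16, and Col1a1 by 5.83 at day 8 and 4.63 at day 16. Several genes of this list are matrix genes that mesenchyme expresses, and Col1a1 and Postn stand on the mesenchyme list too, and whether their change reflects TGF-beta signalling was not tested. The lists of targets share Smad7, Skil and Pmepa1.

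**Figure D4:**
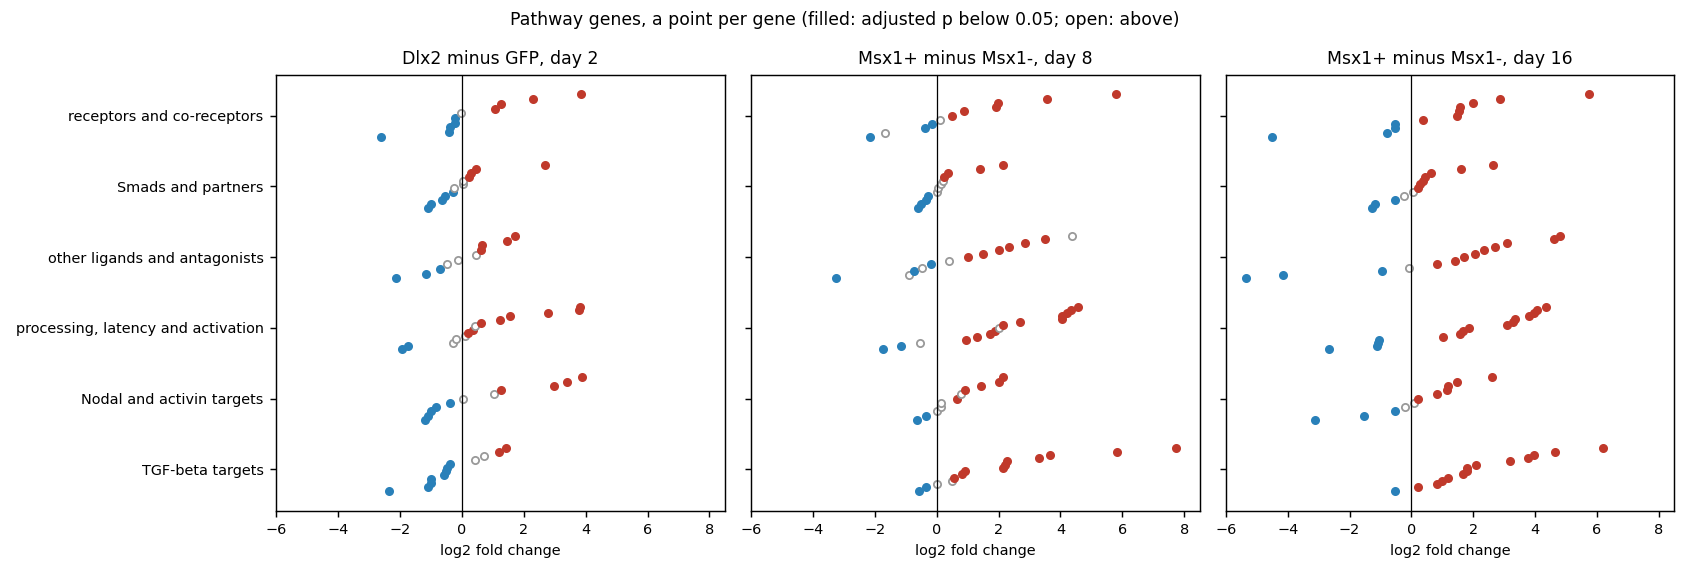
Log2 fold change of each tested pathway gene (horizontal axis) by list, for Dlx2 minus GFP EBs at day 2 and Msx1+ minus Msx1- cells at days 8 and 16; red and blue points passed an adjusted p of 0.05 and open points did not. The list of processing, latency and activation has a median of 0.38, 2.01 and 1.85 in the 3 panels, and the TGF-beta targets have -0.49, 1.53 and 1.80.

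For 4 members, the genes with the most similar pattern over the 10 libraries of the later table were named by the root mean square (RMS) difference of log2 CPM after each gene's mean was removed. The genes nearest to Nodal, whose own range was 3.39 on the log2 scale, were Gm7972 (0.13), Abcc4 (0.138) and Gm1070 (0.14). Those nearest to Inhba were Dnm3os (0.807), Col1a1 (0.846) and Cdh11 (0.954), over a range of 12.2. The RMS was not scaled to a gene's range, and for Inhba it takes in libraries with 0 to 2 counts. For Fst they were Gm9121 (0.438), Adora1 (0.449) and Lpar3 (0.46), over a range of 5.37, and for Tgfb2 they were Cd44 (0.274), Pgm5 (0.322) and Gm16574 (0.355), over 7.91. Cd44, which encodes a hyaluronan receptor, averaged 66.9 CPM in Msx1+ and 2.79 CPM in Msx1- cells of day 8, and 117 CPM in Msx1+ and 17.0 CPM in Msx1- cells of day 16. These points share libraries and groups, and the likeness is a description.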

How the data were processed

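RNA of 14 libraries was extracted with TRI Reagent and made into libraries with an unstranded NEBNext kit, per the labels' protocols. The authors deposited 2 tables of raw counts per gene symbol, and per the submitters' processing notes fastp 0.20.0, HISAT2 2.1.0, DESeq2 1.18.1 and GRCm38 were used. What counted the reads, and on which annotation, is not given in the sources used here. Labels list 18 samples in 9 groups. The 4 uninduced day-2 samples were not analysed here. Columns at day 2 give the line but not doxycycline. They were read as induced, since the study's stated comparison is between overexpressing EBs.

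Each table was fitted on its own with R 4.3.3 and edgeR 4.0.16 (filterByExpr, TMM, robust glmQLFit on groups, glmQLFTest, two-sided), with 4, 8 and 10 libraries for day 2, the sorted cells and the comparisons with ES cells, on 18650, 22294 and 22504 genes. The SE is the absolute log2 change over the square root of F. Levels per kb use the union of exons in GENCODE vM21 (GRCm38). Antisense genes overlap Fst, Tgfb2 and Tgfb3. None exceeded 0.145 CPM, and strands cannot be told apart in these counts. Alternatives were RLE or library-size scaling, no filter or 1 CPM in 4 libraries, DESeq2 1.42.0, the replicate block, the 10-library fit and leaving out each library. The fitting was tested on simulated data. The members, lists and comparisons were chosen with earlier results of these data known. Members are all named, and of each pathway list up to 4 called genes with the largest change. Smad2, and for day 2 Thbs1 and the Nodal and activin targets that fell, were added after their values were seen. Cell type markers were listed by hand.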

Additional observations from a re-analysis of the deposited data

Results flagged for a closer look

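The Msx1+ minus Msx1- difference was not the same at days 16 and 8 for 9 of the 10 genes, by edgeR's quasi-likelihood test of the difference itself, which called 28.6% of all genes. On the log2 scale, the difference at day 16 minus that at day 8 was -4.57 for Inhba, -4.08 for Fst, -2.61 for Lefty2, -2.58 for Gdf3 and -2.42 for Lefty1. It was -1.66 for Tgfb2, -1.48 for Nodal, -0.52 for Tgfb1 and 0.54 for Inhbb. The Inhba value rests on 2 counts in Msx1- cells of day 8 and was -3.53 without replicate 1 of that group and -8.01 without replicate 2. The call of Inhbb was lost with library sizes alone, with the replicate block and without any 1 of 5 libraries. For Fst the fractions changed places, with Msx1+ cells lower at day 16 (-1.96) and higher at day 8 (2.12). For Nodal, Gdf3 and Lefty2 the Msx1+ fraction was lower at both days and more so at day 16, and for Inhba, Tgfb1 and Tgfb2 it was higher at both days and less so at day 16. All 8 pluripotent markers, 8 of 10 endoderm markers (median -2.27), 5 of 5 epithelial markers and 5 of 7 mesenchyme markers also had a lower difference at day 16 than at day 8. In the mesenchyme list, 1 marker had a higher difference. The other lists went less clearly this way. Of 5 endothelial markers 1 was called higher and 2 lower, and of 5 neural markers 3 were lower. In the blood list, 1 of 4 tested was lower. Among the 6 primitive streak and mesoderm markers (median 0.185) and the 5 cardiac markers 0 were called. The part of all these markers in the changes of the members was not tested.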

How the results depend on the processing

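Over single genes and alternatives, 1049 values kept their direction and their side of the threshold, 17 were no longer called, 4 became called and 0 called values reversed. The counts of members called kept within 1.5 times, except the count called higher for the change of the Msx1 difference between the days, which was 1 and fell to 0 with library sizes alone and with the replicate block, and ran from 0 to 1 when a library was left out. That member, Inhbb, had 0.35 (adjusted p = 0.168) with library sizes alone and 0.54 (adjusted p = 0.0585) with the replicate block. Without single libraries its lost values were 0.41 (Msx1+ day 8 replicate 1), 0.53 and 0.58 (Msx1- day 8 replicates 1 and 2), 0.37 (Msx1+ day 16 replicate 1) and 0.44 (Msx1- day 16 replicate 1), with adjusted p from 0.069 to 0.197. The block changed no other member's call. Samples share only a number: deviations of same-numbered libraries correlated at -0.014 between the fractions of day 8, -0.074 between those of day 16 and from -0.171 to 0.348 over all pairs of groups. Library sizes alone moved the median of all genes to 0.198 at day 2, -0.284 for the change of the Msx1 difference, -0.15 for day 16 against day 8 in Msx1+ cells, and 0.138 to 0.3 for 3 of the comparisons with ES libraries. No paired analysis was possible at day 2 because those columns carry numbers that no label ties to a sample. Inhba could not be tested at day 2 under the main filter, and its change against Msx1- cells of day 8 or the libraries labelled ES is limited by their counts of 2 and 0. A lone library was assumed to vary like the other groups. The cause of each lost call was not tested.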
